A study of Homo sapiens with 6 samples.

Results

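The nuclear genes of the mitochondrial respiratory chain and ATP synthase were examined in the human lung adenocarcinoma line A549 and its cisplatin-resistant derivative A549/DDP. Members were all protein-coding nuclear genes of GENCODE 44 (GRCh38) whose symbols start with NDUFA, NDUFB, NDUFC, NDUFS or NDUFV, with UQCR, with COX4 to COX8, or with ATP5. This gave 94 genes, of which 70 had at least 1 row in the deposited tables, out of 30061 gene IDs listed in all. The 70 genes held 277 of the 81818 transcript rows. Members were grouped by symbol into complex I (27 genes with rows), complex III (6), complex IV (14, with NDUFA4 and NDUFA4L2 placed here), ATP synthase (15) and the complex I assembly factors named NDUFAF (7), and 1 further gene was the readthrough ATP5MF-PTCD1.

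Each line was represented by 3 libraries of rRNA-depleted total RNA, from cells at passages 6 to 8. Cisplatin (DDP, 1 µg/mL) was in the medium of A549/DDP cells only, so the presence of the drug and the resistant state cannot be told apart. Each line is a single line, and the labels do not say whether its 3 libraries came from separate cultures, so p values measure only the spread between these libraries, which may be technical. The labels give human lung as the source and spell the resistant line A549/DPP.

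The respiratory chain passes electrons from NADH through complex I, ubiquinone, complex III and cytochrome c to complex IV, where oxygen is reduced. Complexes I, III and IV pump protons across the inner mitochondrial membrane, and ATP synthase uses the return of these protons to turn a ring of c subunits and make ATP. Nearly all subunits are encoded in the nucleus, while a small core is encoded by mitochondrial DNA, and assembly factors bring the parts together without remaining in the finished complexes. Cisplatin forms adducts on nuclear and on mitochondrial DNA, which is one reason why mitochondrial genes are of interest in resistant cells.

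The values of these genes are mostly not values of their mRNAs. Of the 277 rows, 260 (93.9%) had the gene ID and span of a GENCODE transcript. Among all 277 rows, 140 were of retained intron transcripts, 115 were of transcripts with no defined coding sequence, and only 3 were of protein-coding transcripts. A further 2 had the span of a transcript subject to nonsense-mediated decay, and 17 matched no span. Of the 94 genes, 24 had no row, among them UQCRFS1, COX5A, COX6B1 and COX8A, which encode subunits found in every tissue. The muscle or lung isoforms COX4I2, COX6A2 and COX7A1 were listed at 0 in all 6 libraries. Another 6 genes were above 0 but too low to be tested (NDUFAF2, NDUFS1, COX7A2, COX6C, COX6B2 and ATP5MF-PTCD1), which left 61 tested genes and 147 tested rows. A gene or row was tested when it reached 0.5 FPKM (fragments scaled by transcript length and by the size of the library) in at least 3 of the 6 libraries. Of the tested gene sums, only NDUFA4L2 passed through the A549 libraries alone, whereas 5 member rows passed through A549/DDP alone and 2 through A549 alone.

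The called row of ATP5MC3 runs through an intron, so the borders of that intron are shown here, together with those that the other row of ATP5MC3 crosses and those crossed by the rows of NDUFB1, which differed between the lines in opposite directions. Each line gives 24 bases of the reference genome GRCh38, 5′ to 3′ on the strand of the gene, with the first intron bases GT or the last intron bases AG in capitals. Introns are numbered along the main (MANE) transcript of the gene. ATP5MC3-205 holds the whole of intron 4, the last intron of ATP5MC3 (chr2:175178403-175179056, minus strand, 654 bases), and crosses both of its borders.
ATP5MC3-205, 5′ border of intron 4, chr2:175179045-175179068, minus strand: tggttatgccagGTaatcatttct
ATP5MC3-205, 3′ border of intron 4, chr2:175178391-175178414, minus strand: ggtctcttttAGaaacccttcgct
ATP5MC3-204, 5′ border of intron 3, chr2:175180086-175180109, minus strand: aggactggagagGTaatagtagca
NDUFB1-203, 3′ border of intron 1, chr14:92117631-92117654, minus strand: tttttcttttAGctatcatggtga
NDUFB1-205, 5′ border of intron 1, chr14:92121630-92121653, minus strand: ctgaggctgcagGTgggtttgggg

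The 5′ borders carried GT and the 3′ borders AG at the edge of the intron. ATP5MC3-204 runs 453 bases into intron 3 of 847 bases and does not hold intron 4. The NDUFB1 rows lie towards opposite ends of intron 1, which is 3999 bases long. NDUFB1-205 crosses its 5′ border and holds 516 intron bases within 2 exons. NDUFB1-203 covers 1084 bases at its 3′ end, and the spans of these rows do not overlap.

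The libraries of the lines differed in ways that touch all genes. Summed FPKM was 58042 to 62589 in A549 and 65142 to 68664 in A549/DDP, and the number of rows above 0 was 38443 to 40658 and 42029 to 43413. Retained intron rows held 46.2% to 46.8% of summed FPKM in A549 and 49.8% to 51.8% in A549/DDP. In the members these rows held 43.3%, 35.3% and 45.2% of the FPKM in A549 and 50.4%, 51.2% and 35.4% in A549/DDP, where the groups overlapped. The median log2 fold change of all 10591 tested gene sums was 0.17, and fell to 0.01 when libraries were scaled by their median ratio. The part of these differences in the results was not tested. Of the 8 epithelial markers, 7 had rows and 5 were tested, with SFTPB at 0 and no row for NKX2-1. The FPKM summed over the 7 with rows was 859 to 1149 in A549 and 2077 to 2656 in A549/DDP. KRT8, at a mean of 419 FPKM in A549 and 1755 FPKM in A549/DDP, carried most of this difference. KRT18 (179 and 293 FPKM) and CDH1 (3.21 and 18.5 FPKM) were also higher in every A549/DDP library. KRT7 (399 and 273 FPKM), EPCAM (1.25 and 0.845 FPKM) and KRT19 (0.397 and 0.197 FPKM) had lower means in A549/DDP with overlapping libraries. Sums of fibroblast markers stayed under 0.965 FPKM and those of leukocyte markers under 0.112 FPKM, with DCN, PTPRC, PECAM1 and VWF at 0 in every library. CD68, CD79A and CDH5 had no row. The transcript types of the marker rows are not given here, so these values need not be those of the mRNAs. A value of 0 does not show that the mRNA was absent.

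Gene sums, the FPKM summed over all rows of a gene, placed the members of the respiratory chain and ATP synthase close to the background of all genes. A gene was called when its adjusted p was below 0.01 (limma on log2(FPKM + 1), Benjamini-Hochberg over all gene sums tested) and its log2 fold change was above 1 or below -1. Of 61 tested members, 2 were called higher in A549/DDP, ATP5MC3 and NDUFS7, and 0 were called lower. Over all gene sums 1.39% were called higher and 0.963% lower, 2.35% in all, so the share of called members lay near the background. Without the fold threshold, 4 members had an adjusted p under 0.05, all higher: ATP5MC3, NDUFS7, NDUFS3 and COX7C. Of all gene sums 5.93% were higher and 3.26% lower by this rule. At an unadjusted p under 0.05, 8 members were higher and 4 lower, against 18.3% and 8.71% of all gene sums.

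The libraries of the lines did not overlap for 10 members on the higher side and 5 on the lower side, or 16.4% and 8.20% of the tested members, against a background of 21.8% and 10.4% (32.2% in either direction). Among the 5 was NDUFA4L2, which passed the filter through the A549 libraries alone, so that its lack of overlap was fixed by the filter. The median log2 fold change was 0.25 (quartiles -0.07 and 0.62) over the members and 0.17 (quartiles -0.20 and 0.52) over all gene sums, on the log2(FPKM + 1) scale. The fold change was above 0 for 41 of 61 members (67.2%). By complex, the median was 0.17 for complex I, 0.22 for complex III, 0.19 for complex IV, 0.23 for ATP synthase and 0.31 for the NDUFAF factors. When libraries were scaled by their median ratio, the median of the members was 0.05.

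**Figure D1:**
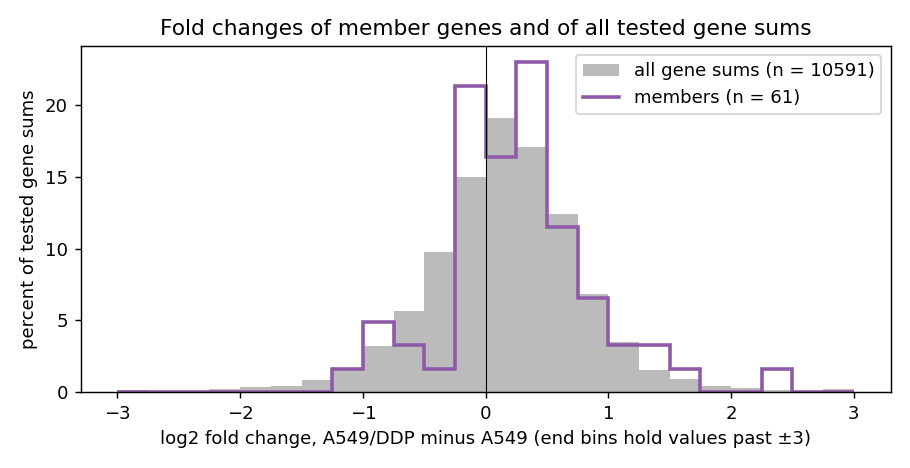
Distribution of log2 fold changes (A549/DDP minus A549, log2(FPKM + 1) scale, x axis) as the percent of tested gene sums in each bin (y axis), for all 10591 gene sums (grey) and the 61 members (line). Members and all gene sums are both centred slightly above 0, with medians of 0.25 and 0.17.

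**Figure D2:**
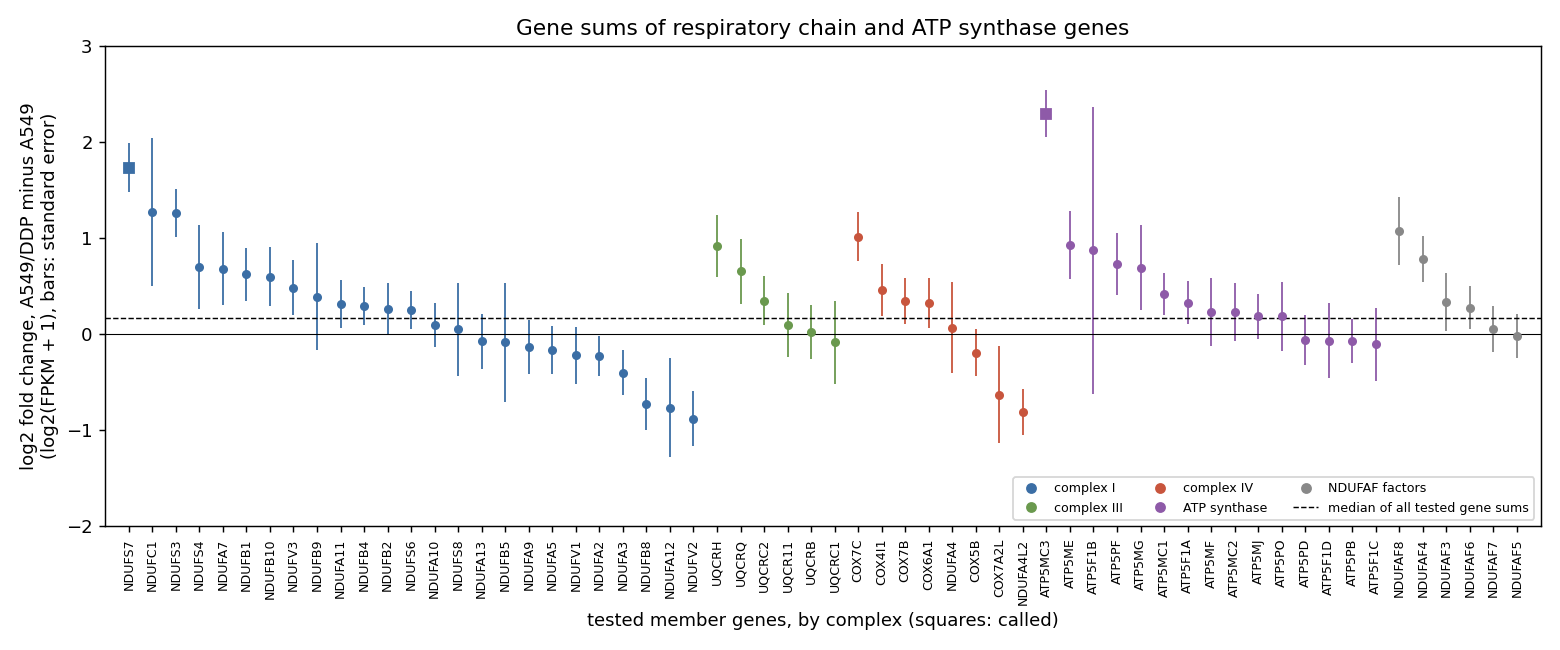
Log2 fold change of the gene sum (y axis, bars are standard errors, 3 libraries per line) for the tested members reported here, grouped by complex and sorted within it. Squares mark the called genes NDUFS7 (1.73) and ATP5MC3 (2.30), and the dashed line marks the median of all gene sums.

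In ATP synthase, ATP5MC3 was the member with the largest fold change. ATP5MC3 (ENSG00000154518, chr2:175176258-175181710, minus strand) is one of the genes for subunit c, the subunit of the rotating membrane ring. Its gene sum was 1.41, 1.09 and 1.98 FPKM in the A549 libraries and 9.84, 12.7 and 11.0 FPKM in the A549/DDP libraries. Every A549/DDP library was far above every A549 library. Means were 1.49 ± 0.454 FPKM in A549 and 11.2 ± 1.42 FPKM in A549/DDP (SD, n = 3). The gene sum rose by a log2 fold change of 2.30 (SE 0.24, adjusted p 0.00166 by limma). With 1 library left out the log2 fold change was 2.17 to 2.43, and the adjusted p rose past 0.01 without A549 replicate 1 (0.0105) and without A549/DDP replicate 1 (0.0110), 2 (0.0155) or 3 (0.0170). On the same genes, without a new filter, it did so only without A549/DDP replicate 2 (0.0130) or 3 (0.0143). The gene has a Y_RNA locus on its own strand within it, and its part in the value was not tested.

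The difference in ATP5MC3 was carried by a single retained intron transcript. ATP5MC3-205 (chr2:175178186-175181710, 1313 exon bases of which 50.2% lie in exons of the MANE transcript) was at 0.141, 0.380 and 0.942 FPKM in A549 and at 9.19, 11.6 and 9.16 FPKM in A549/DDP. All 3 A549/DDP libraries were above 9 FPKM and all 3 A549 libraries below 1 FPKM. The log2 fold change was 2.91 (SE 0.29, adjusted p 0.00510 by limma over 20663 rows). The other row, ATP5MC3-204, which enters intron 3 but lacks intron 4, was at 1.27, 0.706 and 1.04 FPKM in A549 and 0.653, 1.09 and 1.85 FPKM in A549/DDP. These overlapped, with a log2 fold change of 0.11 (SE 0.27, adjusted p 0.856 by limma). ATP5MC3-205 thus made up 32.6% of the gene sum in A549 and 89.3% in A549/DDP. With any 1 library left out its log2 fold change was 2.74 to 3.12 and its adjusted p 0.0186 to 0.0632, past the threshold each time. With no filter the adjusted p was 0.0219, and with a pseudocount of 0.1 it was 0.0146.

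The other genes for subunit c, ATP5MC1 and ATP5MC2, had log2 fold changes of 0.42 (adjusted p 0.258) and 0.23 (adjusted p 0.670) by limma. ATP5MC1 was at 3.87, 4.03 and 3.62 FPKM in A549 and 5.89, 5.58 and 4.92 FPKM in A549/DDP, higher in every library of the resistant line, whereas ATP5MC2 overlapped. Both were picked for this comparison after their values were seen.

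The most abundant ATP synthase members did not pass the test. ATP5F1C encodes the gamma subunit, the shaft that turns inside the catalytic head, and was at 61.1, 32.7 and 81.1 FPKM in A549 and 63.1, 60.2 and 34.0 FPKM in A549/DDP, with a log2 fold change of -0.11 (SE 0.38). ATP5PB, which encodes subunit b of the stator stalk, was at 39.6, 48.6 and 40.2 FPKM against 47.0, 33.9 and 41.6 FPKM, a log2 fold change of -0.07 (SE 0.23). The groups overlapped for both genes. Within ATP5F1C the main row, ATP5F1C-210, had a log2 fold change of -0.68 (SE 0.49), while the retained intron row ATP5F1C-207, named here after its values were seen, was at 1.69, 1.48 and 3.88 FPKM in A549 and 7.42, 5.46 and 8.47 FPKM in A549/DDP. ATP5F1C-207 did not overlap between the lines, with a log2 fold change of 1.33 and an adjusted p of 0.0789 by limma.

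ATP5F1B, which encodes the catalytic beta subunit, varied more between libraries of a line than between the lines. Its gene sum was 4.13, 107 and 3.099 FPKM in A549 and 7.54, 7.16 and 197 FPKM in A549/DDP, so that 1 library of each line stood far above the other 2. The log2 fold change of 0.87 had an SE of 1.498 (adjusted p 0.747 by limma). The row behind this was ATP5F1B-202, at 1.25, 103 and 1.497 FPKM in A549 and 3.15, 1.30 and 166 FPKM in A549/DDP. This transcript has no defined coding sequence, and all of its 840 exon bases lie within exons of the MANE transcript. ATP5F1B-205 was at 24.3 FPKM in A549/DDP replicate 3 and at 0 in the other 5 libraries. A different row, ATP5F1B-206, named after its values were seen, was at 0.938, 1.26 and 0.523 FPKM in A549 and 3.14, 2.77 and 4.19 FPKM in A549/DDP, without overlap (log2 fold change 1.20, adjusted p 0.0504 by limma).

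ATP5ME, which encodes subunit e of the membrane part, was at 3.40, 2.63 and 0.993 FPKM in A549 and 6.11, 3.51 and 5.83 FPKM in A549/DDP. The groups did not overlap, but the log2 fold change of 0.93 (SE 0.35) had an adjusted p of 0.135 by limma. ATP5ME, ATP5MC3, ATP5MC1 and ATP5F1A were the 4 ATP synthase members whose libraries did not overlap, all on the higher side, of 15 tested (26.7%, against 21.8% of all gene sums).

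**Figure D3:**
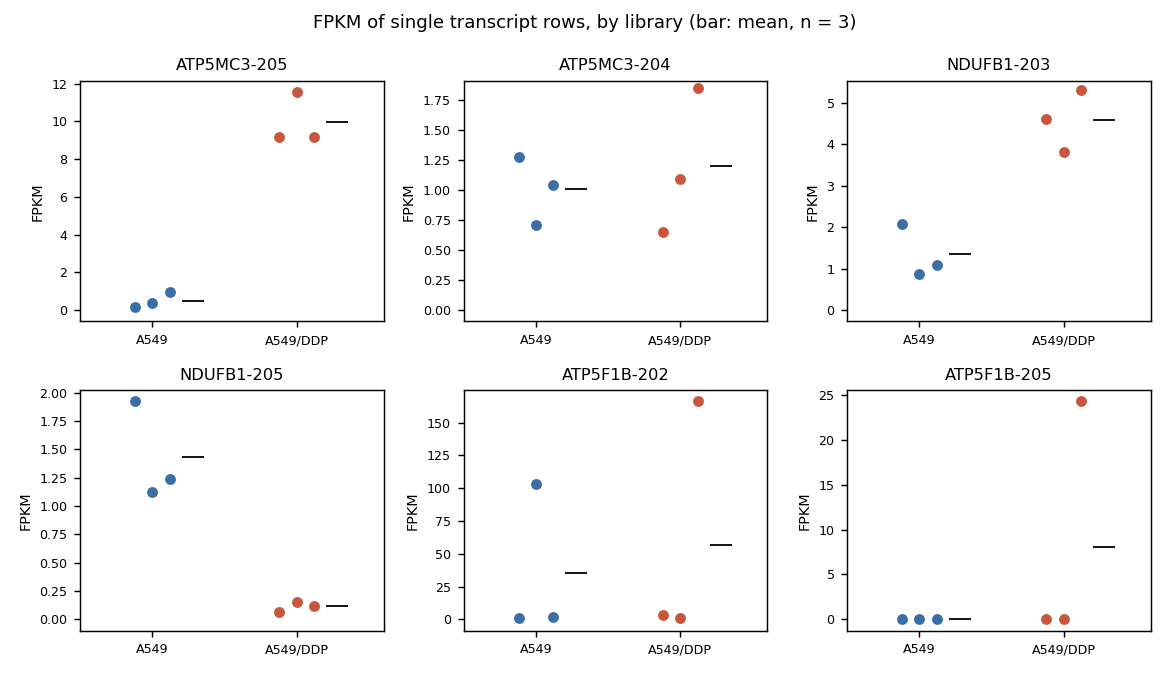
FPKM (y axis) of 6 single transcript rows in each library of A549 and A549/DDP, with bars at the mean of 3 libraries. ATP5MC3-205 and NDUFB1-203 are higher and NDUFB1-205 is lower in every A549/DDP library, ATP5MC3-204 overlaps, and for ATP5F1B-202 and ATP5F1B-205 single libraries set the mean.

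Complex I held the other called gene. NDUFS7 (ENSG00000115286, chr19:1383527-1395589, plus strand) encodes the core subunit with the last iron-sulfur cluster before ubiquinone. Its gene sum was 1.73, 0.948 and 0.921 FPKM in A549 and 5.10, 7.27 and 6.40 FPKM in A549/DDP. All A549/DDP libraries were above all A549 libraries, with means of 1.20 ± 0.458 and 6.26 ± 1.09 FPKM (SD, n = 3). The log2 fold change was 1.73 (SE 0.26, adjusted p 0.00672 by limma). Without any 1 of the 6 libraries the log2 fold change was 1.63 to 1.90 and the adjusted p 0.0138 to 0.0473, so the call was lost each time. With 1 library left out, 5 to 68 of all gene sums were called higher, against 147 with all 6. The NDUFS7 call was also lost with quantile normalization (0.0112) and median-ratio scaling (0.0121). On the other strand 2 genes overlap the NDUFS7 locus, and their part in the value was not tested.

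No single row carried NDUFS7. Its 11 rows were retained intron transcripts but for NDUFS7-209, which has no defined coding sequence, and the largest single rows were not steady within a line. NDUFS7-209 was at 0 in all A549 libraries and at 0, 2.91 and 2.13 FPKM in A549/DDP, and NDUFS7-218 was at 0 in all A549 libraries and at 0, 2.18 and 1.24 FPKM in A549/DDP. Both were listed at 0 in A549/DDP replicate 1, where NDUFS7-212 was at 1.89 FPKM and NDUFS7-207 at 1.48 FPKM. NDUFS7-207 overlapped between the lines (log2 fold change 0.41, adjusted p 0.491 by limma), and too few libraries reached 0.5 FPKM for NDUFS7-209, NDUFS7-218 and NDUFS7-212 to be tested. The retained intron row NDUFS7-208 was also tested, and is among the 5 member rows that passed the filter through A549/DDP alone. NDUFS7-208 was thus higher in every A549/DDP library, but the filter itself fixed this lack of overlap. It was not called, and its share of the gene sum was too small for it to be a named row.

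NDUFS3 encodes another core subunit of the hydrophilic arm of complex I. Its gene sum was 8.44, 8.45 and 5.70 FPKM in A549 and 17.3, 17.7 and 23.1 FPKM in A549/DDP, without overlap. The log2 fold change of 1.26 (SE 0.25) had an adjusted p of 0.0209 by limma, which missed the call. NDUFS3-202, a retained intron transcript that holds 1 whole intron, was higher in every A549/DDP library (4.17, 1.19 and 1.53 against 5.97, 5.44 and 5.39 FPKM, log2 fold change 1.11, adjusted p 0.132 by limma). NDUFS3-211 was at 0, 0.640 and 0 FPKM in A549 and 0, 4.04 and 11.97 FPKM in A549/DDP. The span of this row starts upstream of the other named NDUFS3 rows, and the locus overlaps CELF1, PTPMT1 and KBTBD4, and their part in the value was not tested.

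NDUFV1, whose product binds NADH, was at 27.7, 16.9 and 31.3 FPKM in A549 and 26.0, 21.0 and 16.5 FPKM in A549/DDP, a log2 fold change of -0.22 (SE 0.30, 95% interval -0.90 to 0.46). The groups overlapped, and most of its FPKM came from NDUFV1-210, a retained intron transcript that holds the whole of intron 6 (195 bases) and was at 19.5, 10.3 and 23.3 FPKM in A549 and 14.9, 10.3 and 13.8 FPKM in A549/DDP.

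NDUFV2 encodes the iron-sulfur partner of NDUFV1. It was at 18.01, 22.6 and 19.7 FPKM in A549 and 10.3, 7.14 and 15.1 FPKM in A549/DDP, lower in every library of the resistant line. The log2 fold change was -0.88 (SE 0.29, adjusted p 0.0944 by limma). NDUFV2-203, whose exon bases lie to 97.8% in exons of the MANE transcript, was at 15.4, 15.9 and 17.97 FPKM against 7.49, 4.39 and 9.85 FPKM. This row did not overlap between the lines (log2 fold change -1.14, SE 0.33, adjusted p 0.104 by limma). The antisense gene NDUFV2-AS1 overlaps this locus, and whether the quantification used the strand is not given in the sources used here.

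NDUFB8, an accessory subunit of the membrane arm, was at 19.3, 13.1 and 15.4 FPKM in A549 and 9.48, 6.79 and 11.6 FPKM in A549/DDP. The libraries did not overlap, with a log2 fold change of -0.73 (SE 0.27, adjusted p 0.127 by limma). The main row, NDUFB8-205, runs 350 bases into intron 4 and was at 12.4, 11.0 and 9.38 FPKM against 6.12, 3.69 and 8.65 FPKM (log2 fold change -0.79, adjusted p 0.229 by limma). A minor retained intron row, NDUFB8-204, was at 1.56, 0.992 and 1.71 FPKM in A549 and at 0.00501, 0.00428 and 0.343 FPKM in A549/DDP (log2 fold change -1.12, adjusted p 0.0359 by limma). NDUFB8-204 reached 0.5 FPKM in the A549 libraries alone, so passing the filter already favoured a difference.

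**Figure D4:**
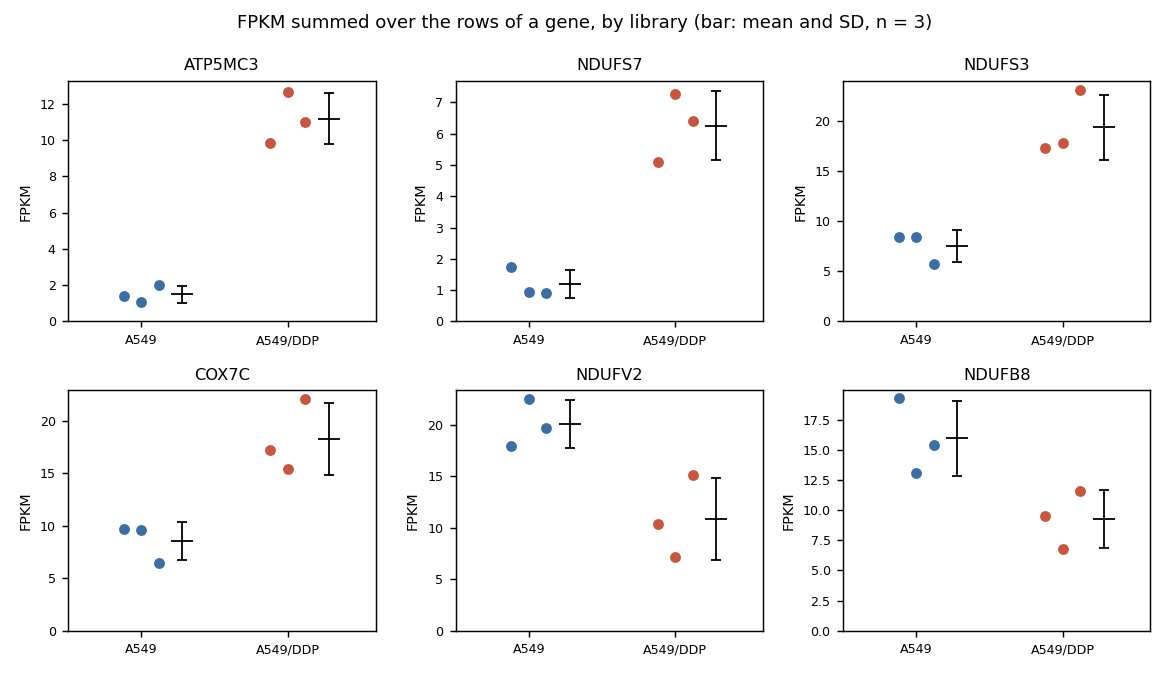
Gene sums in FPKM (y axis) of 6 members in each library of A549 and A549/DDP, with bars at the mean and whiskers for the SD of 3 libraries. ATP5MC3, NDUFS7, NDUFS3 and COX7C are higher and NDUFV2 and NDUFB8 lower in every A549/DDP library, and of these only ATP5MC3 and NDUFS7 were called.

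NDUFB1, another accessory subunit of the membrane arm, had rows that differed in opposite directions at the ends of its first intron. NDUFB1-203 (chr14:92116126-92118726, minus strand, retained intron) was at 2.08, 0.881 and 1.09 FPKM in A549 and 4.61, 3.83 and 5.31 FPKM in A549/DDP. NDUFB1-205 (chr14:92120331-92121693, no defined coding sequence) was at 1.93, 1.13 and 1.24 FPKM in A549 and 0.0692, 0.156 and 0.120 FPKM in A549/DDP. NDUFB1 was named because its rows differed in opposite directions by more than 1 on the log2 scale without overlap, so this pattern is the rule of choice. Neither row overlapped between the lines. The log2 fold changes were 1.27 (SE 0.28, adjusted p 0.0532 by limma) and -1.11 (SE 0.20, adjusted p 0.0292 by limma), and neither reached the call. NDUFB1-205 reached 0.5 FPKM in the A549 libraries alone, so the filter fixed its lack of overlap and already favoured a difference. The gene sum of NDUFB1 overlapped between the lines, with a log2 fold change of 0.62 (adjusted p 0.186 by limma), while the share of NDUFB1-205 in it was 51.4% in A549 and 2.45% in A549/DDP.

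NDUFA10, an accessory subunit of the membrane arm with a retained intron row of 4509 exon bases, was at 13.7, 15.8 and 19.4 FPKM in A549 and 16.5, 18.4 and 17.2 FPKM in A549/DDP (log2 fold change 0.10, 95% interval -0.42 to 0.62). The accessory subunits NDUFA3 and NDUFA2, named after their values were seen, were lower without overlap, with log2 fold changes of -0.40 and -0.23 and adjusted p of 0.311 and 0.524 by limma. Of the 26 tested complex I genes, 2 were higher (7.69%) and 4 lower (15.4%) without overlap, against 21.8% and 10.4% of all gene sums.

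In complex III no gene was called and none was free of overlap. UQCRC2, a core protein of the matrix side, was at 10.2, 12.6 and 10.8 FPKM in A549 and 17.6, 10.7 and 15.9 FPKM in A549/DDP (log2 fold change 0.34, SE 0.26). UQCRB, which lies near the ubiquinone sites, had a log2 fold change of 0.02 (SE 0.28), and the small subunit UQCRQ one of 0.65 (SE 0.34, adjusted p 0.257 by limma). The retained intron rows UQCRC2-204 (2.03, 2.71 and 1.19 against 3.88, 3.42 and 4.04 FPKM) and UQCRQ-206 (1.97, 2.27 and 1.61 against 2.44, 3.15 and 3.68 FPKM) were higher in every A549/DDP library. Their adjusted p values by limma were 0.193 and 0.326.

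In complex IV the most abundant gene was COX4I1, the widely expressed form of subunit 4, at 39.2, 23.7 and 38.3 FPKM in A549 and 51.8, 48.8 and 37.6 FPKM in A549/DDP. The groups overlapped (log2 fold change 0.46, SE 0.27, adjusted p 0.314 by limma). Its main row, COX4I1-207, holds the whole of intron 3 (628 bases) and made up 73.2% of the gene sum in A549 and 82.3% in A549/DDP. COX7C, a small membrane subunit, was at 9.67, 9.56 and 6.48 FPKM in A549 and 17.2, 15.4 and 22.1 FPKM in A549/DDP, without overlap. Its log2 fold change of 1.01 (SE 0.26) had an adjusted p of 0.0462 by limma, short of the call.

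NDUFA4, once counted with complex I and now placed in complex IV, was at 2.78, 5.90 and 12.1 FPKM in A549 and 5.45, 10.6 and 4.25 FPKM in A549/DDP, where the spread within a line exceeded the difference between the lines (log2 fold change 0.07, SE 0.48). Its paralog NDUFA4L2, a hypoxia-inducible gene named here after its values were seen, was at 2.21, 0.984 and 0.983 FPKM in A549 and 0.192, 0.432 and 0.368 FPKM in A549/DDP. NDUFA4L2 was lower in every A549/DDP library (log2 fold change -0.81, SE 0.24, adjusted p 0.0718 by limma), and it was tested only because the A549 libraries reached 0.5 FPKM.

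The assembly factors of complex I were led by NDUFAF5, an enzyme that modifies NDUFS7, at 19.9, 18.5 and 20.8 FPKM in A549 and 19.3, 16.4 and 23.0 FPKM in A549/DDP. Its gene sum was nearly level (log2 fold change -0.02, 95% interval -0.54 to 0.49), although its row NDUFAF5-206 ranged from 0.837 to 13.4 FPKM within A549 and from 0.701 to 11.2 FPKM within A549/DDP. NDUFAF8, the partner of NDUFAF5, was at 3.26, 1.46 and 0.621 FPKM in A549 and 4.73, 4.56 and 3.96 FPKM in A549/DDP. NDUFAF8 did not overlap between the lines (log2 fold change 1.07, SE 0.35, adjusted p 0.0932 by limma). NDUFAF6 (2.19, 2.04 and 2.54 against 3.42, 2.85 and 2.58 FPKM, log2 fold change 0.28) was also higher without overlap, and NDUFAF3 overlapped (log2 fold change 0.34). NDUFAF4, named after its values were seen, was at 0.637, 0.781 and 0.900 FPKM against 2.14, 2.75 and 1.40 FPKM (log2 fold change 0.78, adjusted p 0.0780 by limma). Thus 3 of the 6 tested NDUFAF factors were higher without overlap, where 21.8% of all gene sums were, and none was called.

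FPKM summed over all rows of a complex was led by few genes. Complex I summed to 189, 168 and 184 FPKM in A549 and 184, 154 and 165 FPKM in A549/DDP. The groups overlapped, and although the ratio of means was 0.930, no direction is read from it, since it rests on 1 member whose values are not reported here. Complex III summed to 31.7, 24.96 and 24.6 FPKM against 39.5, 25.7 and 35.3 FPKM, again with overlap (ratio 1.24, and 0.997 with median-ratio scaling).

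Complex IV summed to 68.9, 50.05 and 70.3 FPKM in A549 and 85.7, 85.5 and 81.8 FPKM in A549/DDP, without overlap as deposited (ratio 1.34), while with median-ratio scaling the ratio was 1.07 and the groups overlapped. COX4I1 alone held 54.1% of this sum. ATP synthase summed to 145, 225 and 163 FPKM against 183, 154 and 331 FPKM, where ATP5F1B set the highest library of each line. The ratio was 1.26 with overlap, 1.09 without ATP5F1B and 0.952 without A549/DDP replicate 3.

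The NDUFAF factors summed to 30.2, 29.3 and 29.5 FPKM in A549 and 37.8, 32.3 and 36.0 FPKM in A549/DDP. These did not overlap as deposited (ratio 1.19, or 1.58 without NDUFAF5, which held 60.4% of the sum), and the ratio was 0.962 with median-ratio scaling. All members together held 0.762% to 0.812% of a library's FPKM in A549 and 0.694% to 0.946% in A549/DDP.

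**Figure D5:**
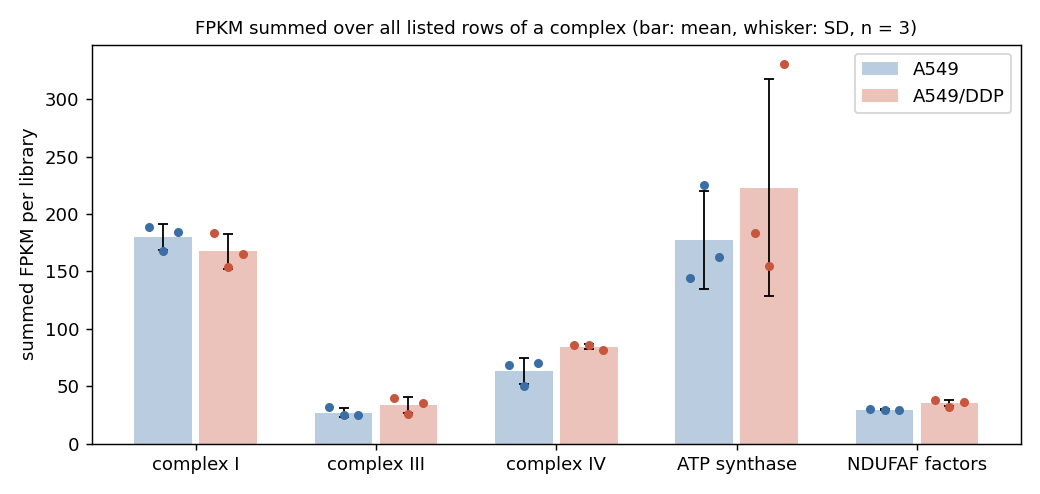
FPKM summed over all rows of each complex (y axis), with a point for each library, bars at the mean and whiskers for the SD of 3 libraries per line. The libraries of the lines separate for complex IV and the NDUFAF factors and overlap for complex I, complex III and ATP synthase.

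At the level of single rows, 1 member row was called higher, ATP5MC3-205, and 0 were called lower, of 147 tested. Over all 20663 rows tested 0.353% were called higher and 0.198% lower, 0.552% in all. Without the fold threshold, 4 member rows had an adjusted p under 0.05, with ATP5MC3-205 and ATP5MF-208 higher and NDUFB1-205 and NDUFB8-204 lower. Of all rows 2.84% were higher and 1.25% lower by this rule. ATP5MF-208 was at 0.0252, 0.0124 and 0.00637 FPKM in A549 and 1.07, 0.513 and 0.765 FPKM in A549/DDP (log2 fold change 0.80, adjusted p 0.0392 by limma), and it passed the filter through the A549/DDP libraries alone. At an unadjusted p under 0.05, 20 member rows were higher and 5 lower, against 15.1% and 6.58% of all rows. Without overlap between the lines were 23 rows on the higher side (15.6%) and 5 on the lower side (3.40%), against 18.9% and 8.91% of all rows (27.9% in either direction). These counts include 5 higher rows that passed the filter through A549/DDP alone and 2 lower rows that passed through A549 alone. For such rows the filter itself fixed the lack of overlap.

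Retained intron rows of the members were close in their fold changes to those of all genes. Of 81 member rows tested, 14 were higher and 2 lower without overlap, or 17.3% and 2.47%, against 18.7% and 7.02% of the 10168 retained intron rows tested in all. Rows that passed the filter through a single line, such as ATP5MF-208 and NDUFB8-204, are among them. The median log2 fold change was 0.19 for the member rows and 0.16 for all retained intron rows. For transcripts with no defined coding sequence the medians were 0.23 over 54 member rows and 0.12 over 5221 rows.

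All 140 retained intron rows of the members held bases of a MANE intron, but only 45 held at least 1 whole intron, as ATP5MC3-205 and COX4I1-207 do. Of these, 34 held 1 intron and 11 held more, 12 rows held the first intron and 12 the last. The median retained intron row had 686.5 exon bases, of which 47.4% were shared with exons of the MANE transcript. Of the 115 rows without a defined coding sequence, 112 could be compared with a MANE transcript. Of these 112, 70 held intron bases and 2 held a whole intron, and the median share with MANE exons was 71.3%. FPKM of a row that shares exon bases with the coding transcript depends on how reads were divided between them, and the values of the coding transcripts were not analysed here.

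The spread between libraries of a line was also measured. The median SD of log2(FPKM + 1) over 3 libraries was 0.32 in A549 and 0.31 in A549/DDP for member gene sums, against 0.34 and 0.25 for all gene sums. Of the 42 member rows that reached 5 FPKM in at least 1 library, 6 (14.3%) were under 0.5 FPKM in another library of the same line, against 606 of 3740 rows (16.2%) in all. Among them were rows of ATP5F1B, ATP5MF, NDUFAF5, NDUFC1 and NDUFS3. NDUFC1-202 ranged from 0 to 8.29 FPKM within A549 and from 1.72 to 14.2 FPKM within A549/DDP, so the gene sum of NDUFC1, with a log2 fold change of 1.27, had an SE of 0.77.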

How the data were processed

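The authors deposited 1 table per library with the FPKM of each transcript row, its gene ID and its span. The study's methods name Trimmomatic, HISAT2, hg38 and the Cufflinks tools, whereas the submitters' processing notes name CASAVA, HISAT2, StringTie and DESeq2. Which of them made the FPKM values is not given in the sources used here. The kit keeps the strand, and whether the quantification used it is not given either. The files hold no read counts, so the depth behind a value is unknown and no interval for counting error is given.

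Rows were named from GENCODE 44 (GRCh38) where gene ID and span matched, and summed per gene ID. Gene sums and rows with at least 0.5 FPKM in at least 3 of 6 libraries were compared on log2(FPKM + 1), which understates the change of low values, with limma 3.58.1 (R 4.3.3), a variance trend and Benjamini-Hochberg adjustment over all features tested. Gene sums numbered 10591 and rows 20663. Features were called at an adjusted p below 0.01 with a log2 fold change above 1 or below -1. Standard errors and intervals are those of the fit. Complex sums were described without a test, since 3 against 3 libraries cannot go below an exact permutation p of 0.10. Intron positions and borders were computed with Python 3.11.15 and pandas 2.3.3 from the annotation and GRCh38, and figures with matplotlib 3.10.9. The code was tested on simulated data.

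Members and gene lists were chosen with earlier results of these data known. Named genes were the called members, the 3 most abundant of each complex, up to 2 with the highest and 2 with the lowest fold change among those at a mean of 2 FPKM or more without overlap, and genes with rows that moved in opposite directions by more than 1 on the log2 scale without overlap. Named rows held at least 25% of a named gene's FPKM in a line or were called. Any other name is given in a count or was chosen after its values were seen. The rows NDUFS7-212, NDUFS7-218, NDUFB8-204 and ATP5F1B-205 were also chosen in this way, though not marked where they are given. Alternatives were other filters, pseudocounts, scalings, a replicate block, array weights, a test against 2-fold, leaving out libraries and leaving out coding rows. Replicate numbers showed no pairing of the libraries in the gene sums. No protein sequence was used here, and the values of 1 member are included in counts and sums but not reported here.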

Additional observations from a re-analysis of the deposited data

How the results depend on the processing

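The called gene sums and the called row kept their sign under every setting run, while several fold changes that were not called, and ratios of complex sums given below, changed direction. In addition, 0 members were called lower as a gene sum or a row under any setting that kept the fold threshold. The 2 gene sums called higher became 1 with no filter, with a pseudocount of 0.01, with quantile normalization and with median-ratio scaling, and 0 when tested against a 2-fold change. Without 1 library the count was 0 to 1. At an adjusted p under 0.05 with no fold threshold it was 4. The call lost was that of NDUFS7, whose adjusted p by limma was 0.0204, 0.0155, 0.0112 and 0.0121 under these settings, and against 2-fold also that of ATP5MC3 (0.0526). Calls fell over all gene sums as well. Those called higher went from 147 to 31 with no filter and 49 with a pseudocount of 0.01. They went to 104 with quantile normalization, 94 with median-ratio scaling, 12 against 2-fold and 5 to 68 without 1 library. The 1 row called higher became 0 with no filter, with a pseudocount of 0.1 or 0.01, against 2-fold and without any 1 library. At an adjusted p under 0.05 with no fold threshold there were 2 rows higher and 2 lower. Of these, both lower rows (NDUFB1-205 and NDUFB8-204) and the higher row ATP5MF-208 passed the filter through a single line, which already favoured a difference. Over all rows, those called higher went from 73 to 3 with no filter and 52 and 4 with these pseudocounts. They went to 3 against 2-fold and 0 to 2 without 1 library.

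No pairing by replicate number was seen, as deviations of same-numbered libraries correlated at 0.00412, -0.0456 and -0.0233 over 10591 gene sums. Such correlations cannot show how the libraries were made. With the number as a block, 1 member gene sum and 0 member rows were called. Over all features, 36 gene sums were then called higher and 35 lower, with 0 rows higher and 1 lower.

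The median log2 fold change of gene sums, 0.25, was 0.35 with a pseudocount of 0.01, 0.11 with quantile normalization, 0.0497 with median-ratio scaling and 0.14 with equal FPKM totals. That of rows, 0.20, was 0.10 with no filter, 0.10 with a filter at 2 FPKM, 0.38 and 0.44 with pseudocounts of 0.1 and 0.01, 0.10 with quantile normalization, 0.0189 with median-ratio scaling, 0.14 with equal totals, and 0.0533 to 0.28 without 1 library. The A549/DDP to A549 ratio of complex I sums, 0.930, was 0.749 with median-ratio scaling and 0.832 with equal totals, and a setting that rests on a member not reported here is left out. For complex III and complex IV median-ratio scaling gave 0.997 and 1.07, so that the direction for complex III turned, and for the NDUFAF factors 0.962, also turned, with 1.08 after quantile normalization, 1.07 with equal totals and 1.58 without NDUFAF5. That of ATP synthase, 1.26, turned to 0.952 without A549/DDP replicate 3, and that of all members, 1.14, to 0.918 with median-ratio scaling. The cause was not tested. Leaving ATP5F1B out of ATP synthase was chosen after seeing the data. Rows that a stricter filter or a left-out library removed have no value there.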

Other observations

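Other nuclear genes of the pathway, outside the families above, were looked at with the same fits. Of 90 symbols for complex II, cytochrome c, assembly factors, carriers and the control of mitochondrial transcription, with the 13 genes of mitochondrial DNA among them, 61 had rows and 48 were tested. None was called, with 8 higher and 1 lower at an unadjusted p under 0.05 by limma, against 18.3% and 8.71% of all gene sums. Their median log2 fold change was 0.19. No row was used for the 13 genes of mitochondrial DNA or for cytochrome c (CYCS).

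By group, the median was 0.24 for complex II (4 tested genes), 0.18 for other complex III genes and assembly factors (6), 0.29 for complex IV assembly (15), 0.38 for complex I assembly outside the NDUFAF factors (5, all above 0), -0.23 for ATP synthase assembly (4), 0.20 for carriers (6) and 0.04 for the control of mitochondrial transcription (8). Of the 48, 2 had an adjusted p under 0.05, both higher, where 5.93% of all gene sums were higher by this rule. They were LRPPRC, which stabilizes mitochondrial mRNAs, and PPARGC1A, a coactivator of mitochondrial biogenesis, both named after their values were seen. LRPPRC was at 3.31, 5.33 and 3.40 FPKM in A549 and 9.22, 7.54 and 11.8 FPKM in A549/DDP (log2 fold change 1.07, adjusted p 0.0447 by limma). PPARGC1A was at 1.55, 0.482 and 0.670 FPKM in A549 and 3.86, 3.47 and 2.79 FPKM in A549/DDP (log2 fold change 1.23, adjusted p 0.0305 by limma). Both were higher in every library of the resistant line, and neither reached an adjusted p under 0.01. The transcript types behind these gene sums are not given here, so the values need not be those of the mRNAs.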
